A study of Mus musculus with 12 samples.

Results

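The epithelial keratin and junction genes followed here were Krt8, Krt18, Krt19, Cldn4, Cldn6, Cdh1 and Epcam. They were taken as every probe set of the deposited value table annotated to 1 of these symbols alone, which gave 10 probe sets of 34945 with a single gene symbol, and 7 genes of 18193. Krt8 had 3 probe sets, Epcam had 2 and the other genes had 1 each, and none of the 10 was shared with another gene. All 10 lay above 92.0 intensity units, the median of the whole table, on at least 3 arrays, and Cldn4 did so only on the PGCLC arrays. The 7 genes were chosen for their signal across the groups and on the single PGCLC arrays, so their levels and differences are given as a description, with no test.

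The study profiled RNA from male germ cells of the mouse and their in vitro counterparts on 12 Affymetrix arrays, 3 for each of 4 groups. Primordial germ cells (PGC), the precursors of eggs and sperm, came from genital ridges of male BDF1 fetuses at E12.5, and round spermatids (RS), the haploid cells that follow meiosis, came from the testis of BDF1 mice at 3 weeks. PGC-like cells (PGCLC) at day 6 and spermatid-like cells (SLC) were both made by in vitro differentiation, and all 4 groups were collected by FACS. The labels describe biological replicates, but the sorting gate, the starting cell line and any somatic cells used in culture are not given in the sources used here. No genotype, transgene or added agent is given for any group either.

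Keratins 8, 18 and 19 are the intermediate filament proteins of single-layered epithelia, where Krt8, a type II keratin, pairs with the type I keratins Krt18 and Krt19. Claudins are the membrane proteins that form the strands of tight junctions, which seal neighbouring cells to each other. Cdh1 (E-cadherin) holds cells together at adherens junctions through catenins, and Epcam is a surface glycoprotein of epithelial cells that contributes to their adhesion. Cdh1 and Epcam are also surface proteins of pluripotent cells and of early germ cells, whereas simple keratins mark the epithelia that form when such cells differentiate.

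The median intensity ranged from 73.2 to 107 units over the 12 arrays. The 3 PGC arrays correlated with each other at r of 0.986 to 0.988 over log2 values of 14197 genes, whereas the PGCLC arrays ranged from 0.914 to 0.976 among themselves. PGCLC replicate 2 stood apart, with r of 0.973 to 0.974 to the PGC arrays and 0.914 to PGCLC replicate 1. Summed germ cell markers were 15995, 54443 and 36291 units on PGCLC replicates 1, 2 and 3, against 60183 to 63993 on the PGC arrays. The difference between PGCLC and PGC in each of the 7 genes is therefore also given for each PGCLC array. In these bulk samples, more cells of a type and more RNA per cell cannot be told apart.

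**Figure D1:**
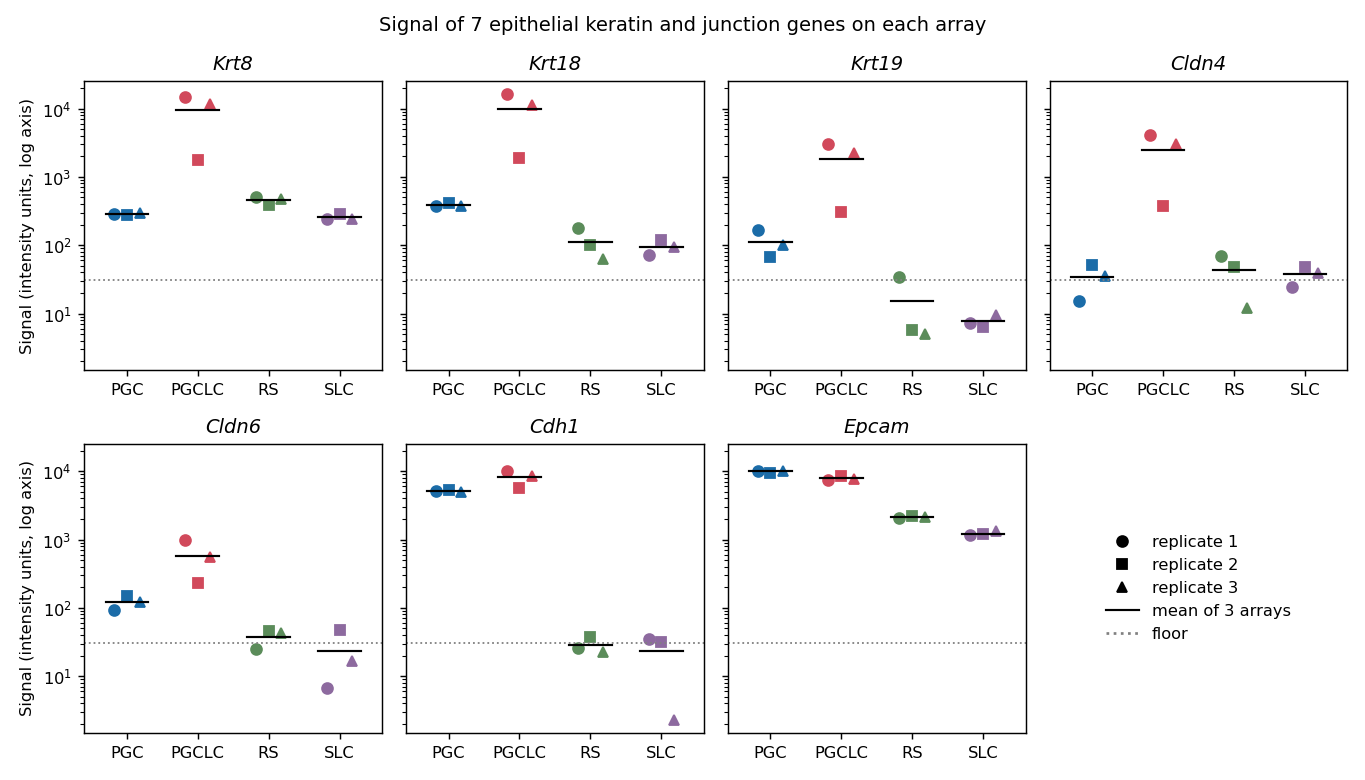
Signal of the 7 genes on each of the 12 arrays, in intensity units on a log axis, with 1 panel per gene and 3 arrays per group as points and their mean as a bar; the dotted line marks the floor of 30.7 units. Krt8, Krt18, Krt19, Cldn4 and Cldn6 were highest on all 3 PGCLC arrays, with replicate 2 lowest of the 3, whereas Epcam was highest on the PGC arrays.

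Each of the 3 keratins had its highest signals in PGCLC. Krt8 measured 284, 278 and 293 units on the 3 PGC arrays, and 14786, 1743 and 11573 units on PGCLC replicates 1, 2 and 3. The 2 groups did not overlap, and the lowest PGCLC array still had 6.12 times the PGC mean. The mean log2 difference of PGCLC minus PGC was 4.55 (SE 0.975, n = 3 per group), a 23.4-fold difference. The other 2 Krt8 probe sets gave the same order of PGCLC arrays, with 12167, 1422 and 9459 units for 1 and 13669, 1414 and 10413 units for the other.

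Krt18, the filament partner of Krt8, measured 375, 413 and 376 units in PGC and 16205, 1914 and 11361 units in PGCLC. Its log2 difference was 4.19 (SE 0.955), 18.2-fold, and again no PGCLC array reached down to the PGC range. Krt19, which also pairs with Krt8, measured 165, 67.9 and 101 units in PGC and 2998, 309 and 2198 units in PGCLC. Its log2 difference was 3.61 (SE 1.09), 12.2-fold, and PGCLC replicate 2 was 2.78 times the PGC mean. In all 3 keratins the 3 PGCLC arrays ran from replicate 1, the highest, through replicate 3 to replicate 2.

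Krt8 and Krt18 are next to each other among the protein-coding genes of chromosome 15, on opposite strands. RefSeq (GRCm38.p6) gave a promoter window for 5 of the 7 genes, from 250 bases before to 50 bases after the start. The windows of Krt8 (chr15:102004293-102004592, minus strand) and Krt18 (chr15:102027966-102028265, plus strand) are shown because these 2 neighbours ran together over the PGCLC arrays. Capitals mark CACCTG, read on both strands, the E-box bound by the Snail and Zeb repressors of epithelial genes.
Krt8: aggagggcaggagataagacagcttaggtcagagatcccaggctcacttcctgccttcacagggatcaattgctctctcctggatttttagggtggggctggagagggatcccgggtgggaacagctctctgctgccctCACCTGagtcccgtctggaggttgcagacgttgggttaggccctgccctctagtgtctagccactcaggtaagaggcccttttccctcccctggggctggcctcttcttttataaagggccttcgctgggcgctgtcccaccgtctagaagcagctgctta
Krt18: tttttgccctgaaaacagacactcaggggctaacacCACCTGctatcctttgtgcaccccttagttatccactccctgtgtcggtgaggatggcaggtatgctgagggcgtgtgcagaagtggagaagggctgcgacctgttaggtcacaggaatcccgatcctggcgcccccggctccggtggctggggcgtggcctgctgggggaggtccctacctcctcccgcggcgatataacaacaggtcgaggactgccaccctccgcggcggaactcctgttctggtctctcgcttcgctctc
Each window held 1 CACCTG match, 111 bases before the start in Krt8 and 214 bases before it in Krt18. Of 32851 mouse promoter windows of this length, 20.2% held the motif. A match describes the letters of the window and not a bound site.

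Among the claudins, Cldn4 had the widest difference between PGCLC and PGC of the 7 genes. This gene, a sealing claudin of simple epithelia, measured 15.2, 50.9 and 35.7 units in PGC, close to the floor of 30.7 units set here on all signals, and 4056, 376 and 3037 units in PGCLC. The log2 difference was 5.45 (SE 1.10), at least 43.6-fold because 1 PGC array lay at the floor. Cldn6, a claudin of embryonic epithelia, measured 93.3, 147 and 123 units in PGC and 972, 231 and 548 units in PGCLC. Its log2 difference was 2.06 (SE 0.632), 4.18-fold, and PGCLC replicate 2 was 1.91 times the PGC mean. Both claudins kept the order of PGCLC arrays seen in the keratins, and neither overlapped with PGC.

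The Cldn4 promoter (chr5:134946885-134947184, minus strand) is shown because Cldn4 had the widest difference. Capitals mark CACCTG on both strands (CAGGTG is its reverse complement) and TGANTCA, the site of AP-1 factors, which do not overlap with each other here.
Cldn4: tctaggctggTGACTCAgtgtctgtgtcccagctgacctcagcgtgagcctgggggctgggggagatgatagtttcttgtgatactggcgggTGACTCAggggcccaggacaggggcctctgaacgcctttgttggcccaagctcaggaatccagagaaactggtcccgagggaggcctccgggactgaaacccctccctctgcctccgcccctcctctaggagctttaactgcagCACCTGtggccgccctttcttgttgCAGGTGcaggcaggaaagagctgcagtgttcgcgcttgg
The window held 2 CACCTG matches, which start 14 bases before and 12 bases after the start of the gene, and 2 matches to TGANTCA, at 240 and 158 bases before it. TGANTCA was found in 7.81% of the 32851 windows, and in none of the other 4 windows of these genes. Cldn6 also held 2 CACCTG matches.

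Cdh1 and Epcam, which already had a strong signal in PGC, differed less between PGCLC and PGC. Cdh1 measured 5116, 5296 and 4972 units in PGC and 10218, 5694 and 8437 units in PGCLC. The log2 difference was 0.62 (SE 0.25), 1.54-fold, and PGCLC replicate 2 was only 1.11 times the PGC mean. Epcam went the other way, with 10131, 9437 and 10196 units in PGC and 7339, 8551 and 7586 units in PGCLC. Its log2 difference was -0.35 (SE 0.076), so that every PGCLC array lay below every PGC array, and PGCLC replicate 2 was the nearest to PGC. The second Epcam probe set ranged from 439 to 643 units in PGC and from 400 to 571 units in PGCLC, which overlapped, and gave a log2 difference of -0.13 (SE 0.245).

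Epcam is the 1 gene of the 7 that was lower in PGCLC, and its promoter (chr17:87635729-87636028, plus strand) is shown for comparison, with CACCTG in capitals on both strands.
Epcam: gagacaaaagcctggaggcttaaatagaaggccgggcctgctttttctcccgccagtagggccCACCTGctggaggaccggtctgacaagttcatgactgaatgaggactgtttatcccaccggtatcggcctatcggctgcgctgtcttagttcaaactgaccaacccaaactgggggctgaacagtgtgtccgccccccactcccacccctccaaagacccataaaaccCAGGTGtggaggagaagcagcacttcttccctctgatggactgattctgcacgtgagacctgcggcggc
It held 2 matches, 187 and 19 bases before the start, so the motif occurred in all 5 windows whether the gene was higher or lower in PGCLC. No window was printed for Krt19 or Cdh1.

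Over the 7 genes, the median log2 difference of PGCLC minus PGC was 3.61, beside 0.0062 over all 14197 genes tested. On 6 of the 7 every PGCLC array lay above every PGC array, a pattern that 20.1% of all tested genes showed, and on Epcam every PGCLC array lay below, as on 20.2% of genes. Of the 7, 5 differed by at least 2-fold, all higher in PGCLC. Since the genes were picked on this difference, nothing is read from these counts. Median centring of the arrays put the median over all tested genes at -0.23 in place of 0.0062 and left the sign of each of the 7 differences as it was.

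**Figure D2:**
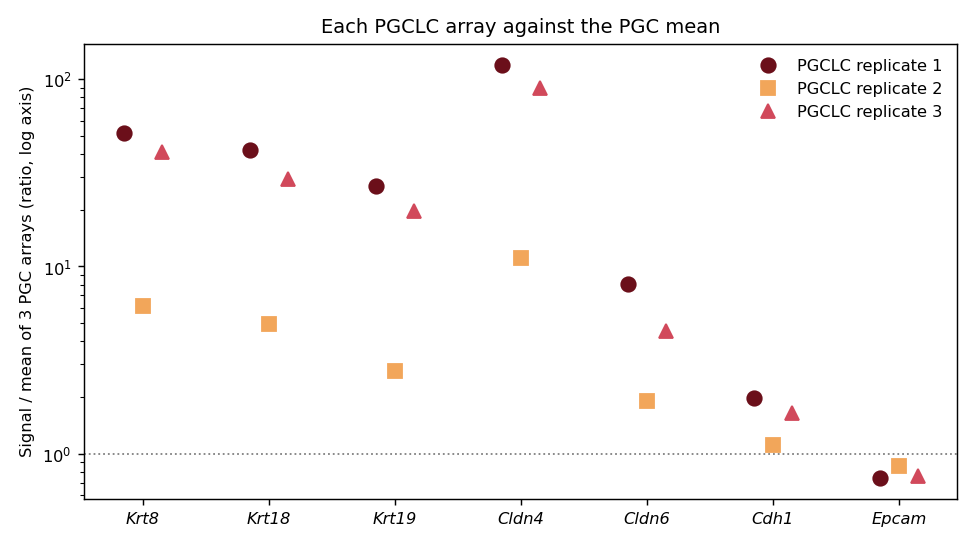
Fold of each PGCLC array over the mean of the 3 PGC arrays, on a log axis, for the 7 genes, with 1 point per PGCLC replicate and a line at 1. Replicate 2 was nearest to 1 in every gene, from 0.862 for Epcam to 11.1 for Cldn4.

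The 3 PGCLC arrays differed widely from each other in 5 of these genes. Replicate 1 had 8.48 times the Krt8 signal of replicate 2, 8.47 times its Krt18 signal, 9.69 times its Krt19 signal and 10.8 times its Cldn4 signal. The ratio was 4.21 for Cldn6, 1.79 for Cdh1 and 0.858 for Epcam. The coefficient of variation over the 3 PGCLC arrays was 72.5% for Krt8 and 74.0% for Krt18, against 2.7% and 5.6% over the PGC arrays. Expressed as the signal above the PGC mean, replicate 2 held 10.1% of the Krt8 excess of replicate 1, 9.65% for Krt18, 6.86% for Krt19, 8.51% for Cldn4, 12.9% for Cldn6 and 11.1% for Cdh1. The 6 genes that were higher in PGCLC thus had replicate 2 at 6.86% to 12.9% of replicate 1, although their folds over PGC ran from 1.99 to 120 on replicate 1. Replicate 3 held 50.2% (Cldn6) to 77.8% (Krt8) of the excess.

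The same proportion was common on these arrays. Of 890 genes at least 4 times the PGC mean on PGCLC replicate 1, the excess on replicate 2 had a median of 13.5% of that on replicate 1, with quartiles of 6.8% and 23.5%. On replicate 3 the median was 69.6%, with quartiles of 60.9% and 77.7%. The order of replicate 1 over 3 over 2 was seen in 93.8% of the 890 genes, which were selected on replicate 1, and in 32.1% of all 14197 genes. On replicate 2 the 6 epithelial genes lay inside these quartiles, and on replicate 3 Cldn6 lay below them and Krt8 just above.

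**Figure D3:**
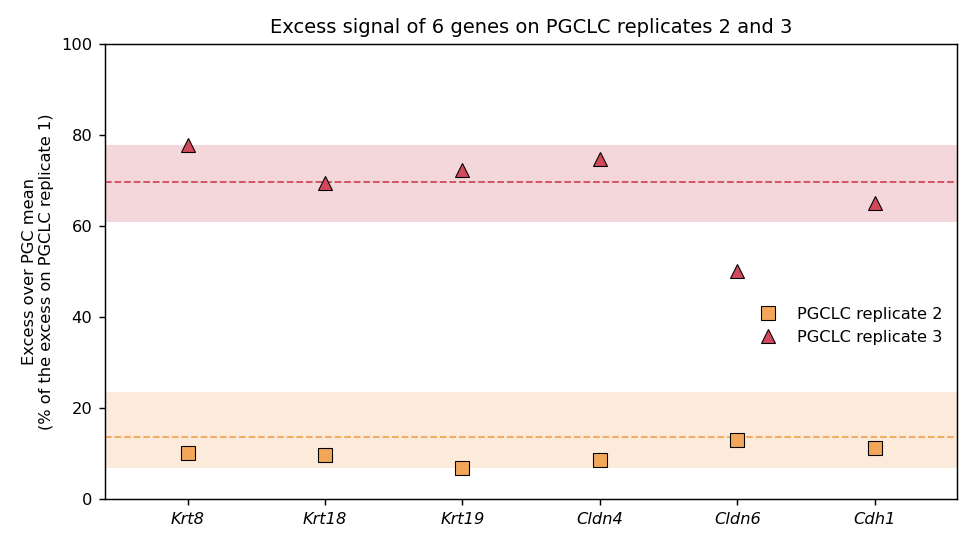
Signal above the PGC mean on PGCLC replicates 2 and 3, as a percent of that on replicate 1, for the 6 genes with a higher signal in PGCLC; the bands give the quartiles and the dashed lines the medians over 890 genes at least 4 times the PGC mean on replicate 1. Replicate 2 lay at 6.86% to 12.9% and replicate 3 at 50.2% to 77.8%.

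Marker lists of other cell types also differed between the PGCLC arrays, and their part in the result was not tested. Of 7 markers of pluripotent epiblast, 5 (Dnmt3b, Pou3f1, Nanog, Klf2 and Zfp42) ran from PGCLC replicate 1 through 3 to 2 as the keratins did, and 2 (Otx2 and Fgf5) ran the other way. Their sum was 24910, 10031 and 21025 units on PGCLC replicates 1, 2 and 3, against 8899 to 9982 units on the PGC arrays. Of 6 trophectoderm markers, Gata3 and Tead4 followed the keratins, whereas Cdx2 was highest on replicate 2 and Eomes, Elf5 and Hand1 on replicate 3. Their sum was 926, 462 and 758 units against 301 to 382 in PGC, where Elf5, Gata3 and Tead4 were at the floor on all arrays. Of 4 markers of surface and stratified epithelium, Trp63 and Krt14 followed the keratins, Krt5 ran the other way with 54.3, 124 and 98.6 units, and Krt15 was at the floor in both groups. They summed to 579, 292 and 439 units against 181 to 230 in PGC.

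Other lists were mostly highest on PGCLC replicate 2, the array with the lowest keratin signals. Of the 7 germ cell markers whose sums are given above, 5 ran from replicate 2 through 3 to 1, whereas Tfap2c ran as the keratins did and Pou5f1 in neither order. The same reverse order was seen in 4 of 6 coelomic and mesonephric epithelium markers, which summed to 567, 2194 and 1164 units against 1000 to 1242 in PGC. It was also seen in all 6 Leydig and interstitial markers with a probe set, which summed to 590, 4413 and 2232 units against 1837 to 2356. Of 10 Sertoli and supporting cell markers, 8 ran in it, with Rhox5 supplying 7039, 8817 and 7530 units on the PGCLC arrays, whereas Clu followed the keratins with 3000, 1541 and 2483 units against a PGC mean of 682. The 10 summed to 10389, 13136 and 11199.7 units against 11356 to 12215. Of 7 peritubular and fibroblast markers, 5 ran in the reverse order, whereas Acta2 followed the keratins and Col1a1 ran in neither order. They summed to 5455, 9481 and 6676 units against 3205 to 3846 in PGC, so this sum was above every PGC array on each PGCLC array. Of 6 endothelium markers, 2 ran in the reverse order and 1 as the keratins did. These summed to 880, 1411 and 1181 units against 1452 to 1890.

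The blood and macrophage markers split by gene. The embryonic globin Hbb-y supplied most of their sum of 5631, 16683 and 11386 units, with 1136, 14997 and 7843 units on the PGCLC arrays, and Hba-x ran the same way. Of the other 5, the macrophage genes Csf1r (796, 280 and 601 units), Cd68 (944, 110 and 635 units) and Adgre1 (120, 95.9 and 109 units) and the globin Hbb-bh1 (2008, 353 and 1476 units) followed the keratins. All 4 lay above every PGC array on each PGCLC array. The sum of the 8 visceral endoderm markers ranged from 514 to 762 units in PGCLC and from 572 to 827 in PGC, and Afp was at the floor on all PGCLC arrays.

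**Figure D4:**
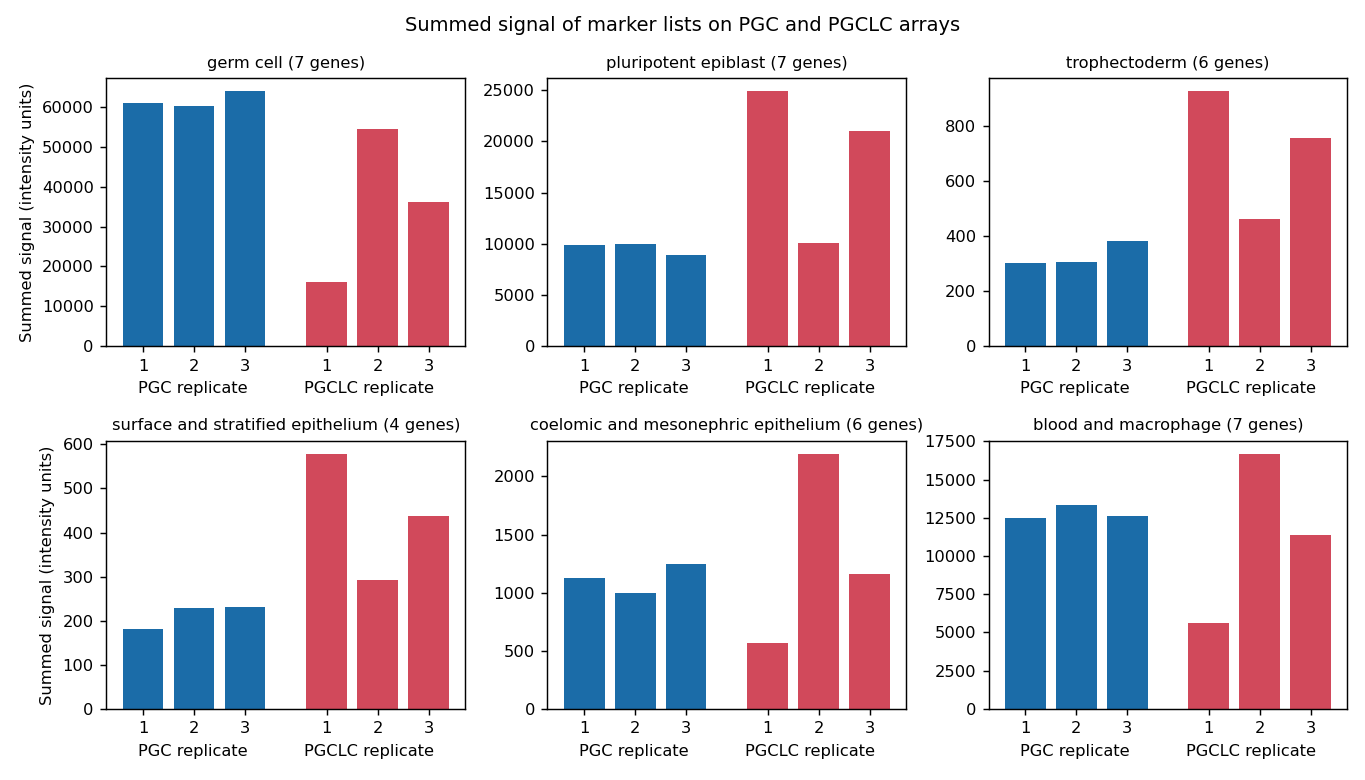
Summed signal of marker lists on the 3 PGC and the 3 PGCLC arrays, in intensity units on a linear axis from 0, with 1 bar per array and 1 panel for each of 6 lists. The sums of the epiblast, trophectoderm and surface epithelium lists ran from PGCLC replicate 1 through 3 to 2 as the Krt8 signal did, whereas those of the germ cell, blood and coelomic lists ran in the opposite order; single markers within a list differed from its sum.

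In spermatids Krt8 and Epcam lay above the filter level of 92.0 units on all arrays, whereas Krt19, Cldn4, Cldn6 and Cdh1 had arrays at the floor in both RS and SLC. Krt8 measured 512, 390 and 468 units in RS and 245, 284 and 242 units in SLC, and the groups did not overlap, with a log2 difference of SLC minus RS of -0.82 (SE 0.138). RS was above PGC for Krt8, by 0.67 (SE 0.117), and this was the 1 gene of the 7 whose RS arrays all lay above all PGC arrays. Krt18 measured 176, 99.6 and 63.6 units in RS and 70.9, 119 and 93.0 units in SLC, so that the groups overlapped (log2 difference -0.17, SE 0.476). Krt19 measured 34.7, 5.8 and 5.0 units in RS and 7.2, 6.3 and 9.5 units in SLC, at the floor on 2 of the RS arrays and on all SLC arrays, so its level there has no order. The other 2 Krt8 probe sets gave SLC minus RS differences of -0.81 and -0.82, the latter with overlapping groups.

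Cldn4 measured 70.4, 48.0 and 11.9 units in RS and 24.3, 47.7 and 39.7 units in SLC, and both overlapped with PGC. Cldn6 measured 25.2, 45.9 and 42.4 units in RS and 6.7, 47.6 and 16.8 units in SLC. Both claudins overlapped between RS and SLC, with log2 differences of -0.28 (SE 0.391) and -0.14 (SE 0.274). Cdh1 measured 25.4, 36.9 and 23.0 units in RS and 35.5, 32.1 and 2.3 units in SLC, and RS was lower than PGC by at least 157-fold. E-cadherin was therefore near the floor in both spermatid groups, and its SLC minus RS difference of 0.002 (SE 0.107) turned to -0.167 with median centring of the arrays.

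Epcam, like Krt8, lay above the filter level on all 12 arrays in its first probe set. It measured 2084, 2209 and 2159 units in RS and 1154, 1190 and 1319 units in SLC, and no 2 groups overlapped in its first probe set. The order was PGC, PGCLC, RS and SLC from high to low, with log2 differences of -2.21 (SE 0.043) for RS minus PGC and -0.82 (SE 0.063) for SLC minus RS. Its second probe set ranged from 390 to 606 units in RS and from 255 to 435 in SLC, overlapped in each of the 4 comparisons made, and gave -0.02 for RS minus PGC.

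Over the 7 genes the median log2 difference was -0.17 for SLC minus RS, beside -0.15 over all genes, and -1.70 for RS minus PGC, beside -0.22. SLC lay wholly below RS in 2 of the 7 (Krt8 and Epcam) and wholly above in 0, where 40.4% and 34.1% of all tested genes did so. RS lay wholly below PGC in 5 of the 7 and wholly above in 1, beside 46.4% and 38.8% of all genes. SLC lay wholly below PGCLC in all 7 and wholly above in 0, beside 38.3% and 37.7% of all genes, and 26.9% of all genes were called lower and 29.4% higher in that comparison. The 7 had log2 differences from -2.68 for Epcam to -7.91 for Cdh1. The comparisons share groups, so their values are not independent of each other.

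Among the 12 arrays, the genes whose log2 signal ran most like that of each gene were found by Pearson correlation over all 12, where the arrays fall into groups that set most of the value. For Krt8 these were Myh10 (r = 0.989), Cldn4 (0.987) and Zic1 (0.984), and for Krt18 they were Nr0b1 (0.989), Crxos (0.986) and Gab1 (0.985). For Krt19 they were Stmn2 (0.991), Gab1 (0.986) and Celsr1 (0.984), for Cldn4 Zic1 (0.990), Krt8 (0.987) and Gprc5c (0.985), and for Cldn6 Cnot6 (0.986), Gcnt1 (0.985) and Nrk (0.984). Cdh1 ran most like Sox2 (0.9996), Ankrd6 (0.9992) and Mthfd1 (0.998), and Epcam most like Fignl1 (0.997), Orc1 (0.997) and Oard1 (0.996). Within the 7, Krt18 and Krt19 correlated at 0.984 and Cdh1 and Epcam at 0.957, whereas Krt8 and Epcam correlated at 0.421.

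Other genes of epithelia were read from 4 lists, of keratins, tight junction proteins, adherens junction and desmosome proteins, and epithelial regulators and surface proteases. Of their genes, 62 were measured and 22 lay under the filter. Calls were made by limma at an adjusted p under 0.05 with a 2-fold difference. Of the 62, 23 (37.1%) rose in PGCLC over PGC and 0 fell, where 10.3% of all tested genes rose and 1.6% fell, and the median log2 difference was 0.67. The lists were chosen with earlier results of these data known. Of the 23, 5 passed the filter only through the PGCLC arrays. The contrast with all genes is therefore a description and not a test of the lists. At an unadjusted p under 0.05 in limma, 33 of the 62 were higher and 6 lower. Median centring gave 19 higher and 4 lower, beside 984 and 878 of all 14197 genes tested. Quantile normalization gave 23 and 2, beside 1052 and 378 of all genes.

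By role, 1 of 6 measured keratins rose, as did 5 of 15 tight junction genes, 10 of 23 adherens junction and desmosome genes, and 7 of 18 regulators and proteases. Krt7, a type II keratin of simple epithelia, rose by 3.54 on the log2 scale (adjusted p = 0.00505, limma), with 3618, 337 and 2403 units on the PGCLC arrays. Krt10, a keratin of stratified epidermis, differed by 0.67, under 2-fold, and was not called. Of the claudins, Cldn7 rose by 2.49 (adjusted p = 0.0189, limma) and Cldn3, the neighbour of Cldn4 on the chromosome, by 2.25 (adjusted p = 0.0303). Perp, a desmosomal membrane protein, rose by 3.22 (adjusted p = 0.00503, limma) and Dsc2, a desmosomal cadherin, by 2.91 (adjusted p = 0.0042). Prss8, a membrane-anchored protease, rose by at least 6.67-fold (adjusted p = 0.0211, limma), and the epithelial and pluripotency factor Klf4 rose by 2.40 on the log2 scale (adjusted p = 0.000439). Of 12 mesenchymal genes and repressors of Cdh1, 6 rose, beside 10.3% of all tested genes, with Prrx1 by at least 4.89-fold and Twist2 by at least 4.10-fold. With the floor at the table median, Prrx1 (log2 difference 0.707) and Twist2 (0.535) lost their calls. On PGCLC replicate 2 alone, Klf4 was 2.91 times the PGC mean, Krt7 2.71 times, Perp 2.58 times, Dsc2 2.48 times, Cldn7 1.62 times and Cldn3 1.36 times. Prss8 had 68.7 units on that array against a PGC mean of 45.7, and PGC replicate 3 lay above it with 94.5 units, so the groups overlapped. Of the 23 genes, Ocln, Pkp3, Dsc2, Perp and Prss8 would not have passed the filter without the PGCLC arrays, nor would Twist2 among the mesenchymal genes, so that they entered the comparison through the group in which they were high.

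All 23 genes that rose had the order of PGCLC replicates 1, 3 and 2 seen in the keratins, though they were called on these same arrays. Cdh3 (P-cadherin), which lies next to Cdh1 on the chromosome, ran in the opposite order: it measured 784, 904 and 791 units in PGC and 256, 892 and 524 units in PGCLC, and was not called (log2 difference -0.74, adjusted p = 0.311, limma). Without PGCLC replicate 1, 2 or 3, 15, 29 and 13 genes were called higher, without PGC replicate 2 the count was 15, and a fit of the 6 arrays of these 2 groups alone called only Cdh2. Cldn3, Cldn7 and Prss8 each lost their call without PGCLC replicate 1 or 3 and without PGC replicate 1 or 2, with adjusted p in limma from 0.0512 to 0.112. Cldn3 also lost its call without PGC replicate 3 (0.0568), with quantile normalization (0.0683) and without the filter (0.0561). With PGCLC replicate 2 as the only PGCLC array, a setting added after seeing the data, 3 genes passed.

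**Figure D5:**
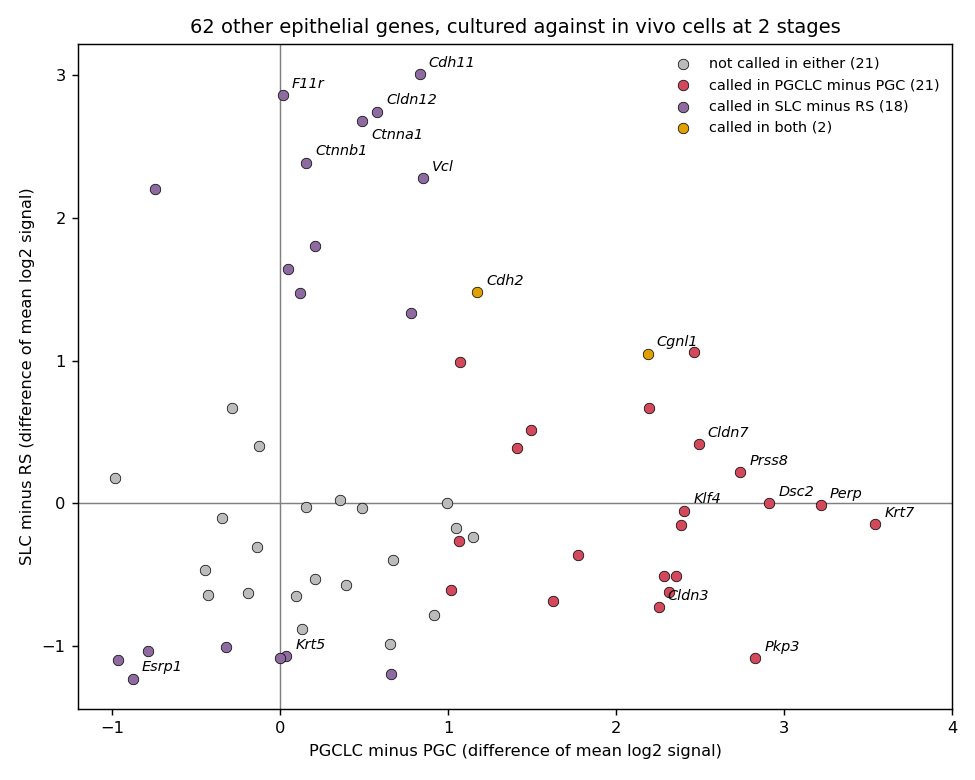
Log2 difference of PGCLC minus PGC (horizontal axis) against SLC minus RS (vertical axis) for the 62 measured genes of the 4 epithelial lists, as points. Krt7 at 3.54 and Perp at 3.22 on the horizontal axis lay at -0.14 and -0.01 on the vertical one, Pkp3 at 2.83 lay at -1.08 and Dsg2 at 2.46 lay at 1.06, whereas F11r and Cldn12, at 2.86 and 2.74 on the vertical axis, lay at 0.02 and 0.58 on the horizontal one. Colours give the calls: 21 genes in PGCLC minus PGC alone, 18 in SLC minus RS alone, 2 in both and 21 in neither.

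In SLC against RS, 13 of the 62 (21.0%) rose and 7 (11.3%) fell, beside 23.5% and 3.32% of all tested genes, with a median log2 difference of -0.12. Median centring and quantile normalization each gave 12 higher and 11 lower. Over all 14197 genes tested, median centring gave 2929 higher and 2490 lower, and quantile normalization 2744 and 2230. The cell adhesion proteins Cdh11 (3.01) and Ctnna1 (2.68), and the tight junction proteins F11r (2.86) and Cldn12 (2.74), rose on the log2 scale, whereas Esrp1, an epithelial splicing factor, fell by 1.23 and Krt5 by 1.07. Lsr, a protein of tricellular junctions, rose by at least 2.52-fold, since all 3 RS arrays were at the floor, and Krt42 differed by -0.63, under 2-fold, and was not called. The Krt5 call was lost without RS replicate 3 (adjusted p = 0.0728, limma) and without SLC replicate 3 (adjusted p = 0.0955). It was also lost with an offset of 16 in place of the floor (log2 difference -0.863). With the floor at the table median, Krt5 (-0.077), Esrp1 (-0.325) and Lsr (0.0) all lost their calls. Of 12 measured mesenchymal genes 9 rose, with Prrx1 by at least 57.5-fold and Vim, the intermediate filament of mesenchyme, by 5.31 on the log2 scale. Peritubular and fibroblast markers summed to 70226 to 71219 units in SLC against 2190 to 2551 in RS, and Leydig and interstitial markers to 11546 to 12002 units against 289 to 353. Their part in these differences was not tested. Of the 62 epithelial genes, the 2 called in both PGCLC minus PGC and SLC minus RS were Cdh2 and Cgnl1.

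In RS against PGC, 28 of the 62 (45.2%) fell and 10 (16.1%) rose, beside 37.2% and 31.5% of all tested genes, with a median log2 difference of -0.86. The desmosomal plakophilin Pkp2 fell by 5.28 on the log2 scale, Esrp1 by 5.20 and F11r by 4.55. Cdh3 fell by at least 4.03, or at least 16.3-fold from mean log2 values, since 1 RS array was at the floor, against a ratio of mean signals of 13.7. Tfap2c, a regulator of early germ cells and epithelia, fell by at least 28.3-fold. Cldn12 fell by 3.06 on the log2 scale and Krt7 by at least 3.23-fold, whereas Krt23, a type I keratin, rose by at least 3.05-fold. All 3 PGC arrays of Krt23 were at the floor, and it would not have passed the filter without the RS arrays. The Krt7 call was lost without any 1 of the 3 PGC arrays, RS replicate 1, RS replicate 2 or SLC replicate 1, with adjusted p in limma from 0.051 to 0.101. It was also lost with quantile normalization (0.057), without the filter (0.0648) and with the floor at the table median (0.597). Krt23 too lost its call with the floor at the table median (0.189). Of the mesenchymal genes 5 of 12 fell and 1 rose, and Fn1 (fibronectin) fell by 3.86 and Tcf4 fell by 3.46.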

How the data were processed

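Total RNA of the 12 samples was labelled with biotin and hybridised to Affymetrix mouse arrays. The authors deposited intensity values per probe set on a linear scale, and MAS5 is the tool named in the submitters' processing notes; its version and settings are not given in the sources used here. Of 45101 probe sets, 64 controls, 932 with several symbols and 9160 with none were left out. Values under 30.7 units (the 25th percentile of the table) were set to it, and log2 was taken. Probe sets above the table median of 92.0 on at least 3 arrays were kept, and each of the 14197 genes took its probe set with the highest mean. A single model over the 12 arrays (4 group means, intensity trend) was fitted with limma 3.58.1 under R 4.3.3, with Benjamini-Hochberg adjustment over all genes, and tests were two-sided. The fit was tried on simulated data with the same spread in all 4 groups, which says nothing of the wider spread in PGCLC. The spread in the model is shared by the 4 groups. Nothing shows whether arrays of a group came from separate cultures or animals beyond the word biological, so p-values measure the spread between these samples. The SE printed for the 7 genes comes from the 2 groups' own arrays.

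The genes and lists were chosen with earlier results of these data known. Named list genes were the 2 with the largest difference, called or not, in each list and comparison, and the 3 best correlated genes for each of the 7; other list genes named beside them were chosen after their values were seen. A fold is given as "at least" where any array in the lower group was at the floor. Replicate numbers did not pair the arrays. Promoter letters are from RefSeq (GRCm38.p6). Precision is limited by the number of arrays. Alternatives were other scalings, floors, filters, probe set rules, array weights, a replicate block and each array left out.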

Additional observations from a re-analysis of the deposited data

Results flagged for a closer look

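In the probe set that stood for the gene, Krt8 differed in opposite directions at the 2 stages: all PGCLC arrays lay above all PGC arrays and all SLC arrays lay below all RS arrays. In 1 of its other 2 probe sets, SLC and RS overlapped. Of all tested genes, 20.1% lay wholly above in PGCLC and 40.4% wholly below in SLC. The difference between the 2 log2 differences was 5.375, and it was not tested.

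Only the 2 genes of each list with the largest difference in PGCLC minus PGC or in SLC minus RS were looked at here. That choice favours a large difference between the differences, and the share of all genes that passed is not given. For the following of these genes, the difference of PGCLC minus PGC was set against that of SLC minus RS in limma, and the difference of the differences passed the threshold after adjustment. It was larger at the PGCLC stage for Krt7 by 3.687 (adjusted p = 0.0087), Perp by 3.233 (0.0104), Cldn3 by 2.982 (0.0248), Klf4 by 2.456 (0.000324), Twist2 by 1.685 (0.00556) and Krt10 by 1.064 (0.0182). For Krt7, 2 RS arrays and 1 SLC array were at the floor, so its value is mostly its PGCLC minus PGC difference of 3.54. Perp had 1 SLC array at the floor, and Cldn3 had 1 RS and 1 SLC array there. For Twist2, 2 PGC arrays were at the floor, so its PGCLC minus PGC difference is a lower bound and 1.685 is not exact. Perp and Twist2 would not have passed the filter without the PGCLC arrays, so that they were tested because those were high. For Dsc2, of which the same holds, the value was 2.912, but all 6 spermatid arrays were at the floor, so that this is its PGCLC minus PGC difference and says nothing of the SLC stage. It was larger at the SLC stage for Vim, at -3.589 (adjusted p = 2.1e-07), Prrx1, at -3.557 (1.44e-05), F11r, at -2.845 (1.09e-05), Ctnna1, at -2.187 (2.37e-06), Cdh11, at -2.173 (0.000434), and Cldn12, at -2.163 (4.52e-05). For Prrx1, all 3 PGC arrays and 1 RS array were at the floor, so that both of its differences are lower bounds and -3.557 is not exact.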

How the results depend on the processing

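Over 23 alternatives, 462 of 483 differences of the 7 genes moved by less than 1 SD. The SD was the larger of the 2 compared groups' own, on log2 values, and was wide in PGCLC for the keratins and claudins. Leaving out an array of another group, fitting the 6 arrays alone or adding the replicate block cannot move such a difference. The count is therefore in part fixed in advance and does not measure stability. None of the differences of at least 2-fold changed sign. Smaller ones could: Cdh1 for SLC minus RS, near the floor, turned from 0.002 to -0.167 with median centring. With an offset of 16 in place of the floor it was -0.305, and both shifts were beyond 1 SD. The median of the 7 genes for PGCLC minus PGC ranged from 2.98 to 4.62 with 1 array left out, and was 1.57 with PGCLC replicate 2 as the only PGCLC array, an alternative chosen after seeing the data. For SLC minus RS it ranged from -0.52 (without RS replicate 3) to -0.042. For RS minus PGC it ranged from -1.86 to -1.66, and was -1.85 with median centring, -1.56 with quantile normalization and -0.37 with the floor at the table median, which by construction raises the low signals. With 1 array left out, 13 to 29 of the list genes rose in PGCLC and 0 to 4 fell, and 4 to 8 fell in SLC against RS, the 4 without SLC replicate 2. The 6 arrays alone gave 1 higher, and PGCLC replicate 2 alone gave 3. Median centring gave 4 lower in PGCLC, quantile normalization 2 and array weights 3. In SLC against RS, 11 were lower with either scaling and 4 with the floor at the table median. Krt42 turned from -0.63 to 0.136 for SLC minus RS without x_at and s_at probe sets (adjusted p = 0.741, limma), where another probe set stands for the gene. The cause of the other changes was not tested. Of 690 values of named list genes, 643 kept their call, 46 lost it and 1 reversed.

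Over all genes tested, the share of calls that were higher went from 86.5% to 52.8% with median centring and 73.6% with quantile normalization for PGCLC minus PGC, and from 87.6% to 54.1% and 55.2% for SLC minus RS. Genes called lower went from 227 to 878 and 378 for PGCLC minus PGC, and from 472 to 2490 and 2230 for SLC minus RS. The changed counts of list genes stand beside these changes over all genes.

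Same-numbered arrays did not deviate together (correlations of -0.017 to 0.133), so the numbers were not used for pairing. With a replicate block, 22 list genes rose in PGCLC, all 22 among the 23.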
